A study of Mus musculus with 3 samples.

Results

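The 10 genes described here encode the TGF-beta ligands (Tgfb1, Tgfb2 and Tgfb3), their receptors (Tgfbr1, Tgfbr2 and Tgfbr3) and the latent TGF-beta binding proteins (Ltbp1, Ltbp2, Ltbp3 and Ltbp4). They were taken by gene symbol from the 55422 genes listed for each library, and all 10 passed the filter on low counts. Their unique molecular identifiers (UMIs, 1 for each captured RNA molecule) were summed within populations of cells gated on marker genes, and none of the 10 was itself a marker.

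Bone cells of untreated male mice aged 3 weeks were profiled by droplet single-cell RNA sequencing in 3 libraries, all labelled C57BL/6. Metaphyseal replicates 1 and 2 held cells of the metaphysis dissected from long bones of C57BL/6J mice after depletion of lineage-positive, CD45+ and CD117+ cells, which takes out most blood cells. Pdgfra-GFP replicate 1 held GFP+ cells sorted from the metaphysis and epiphysis of femur and tibia of Pdgfra-H2B-GFP mice, heterozygous for a histone-GFP fusion knocked in at Pdgfra, so that cells expressing this receptor gene were kept. How many animals were pooled in a library was not given in the sources used here. The p-values thus measure how differences between populations vary from library to library, which may be partly technical. That spread was estimated over all populations of a fit together.

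TGF-beta is secreted in a latent form, in which the mature dimer stays bound to its own propeptide. Latent TGF-beta binding proteins tether that complex to fibrillin in the matrix, from which integrins and proteases can free the ligand, and Ltbp2 is the family member known for binding fibrillin without binding latent TGF-beta. Free ligand joins the type II receptor Tgfbr2 and the type I receptor Tgfbr1, a kinase that phosphorylates Smad2 and Smad3, while the co-receptor Tgfbr3 (betaglycan) presents ligand, above all Tgfb2. Bone matrix is a well-known store of latent TGF-beta.

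In the Gencode M21 annotation of GRCm38, the build that is also called mm10, all 10 are protein-coding genes. Tgfb1 lies at chr7:25687002-25705077 (+), Tgfb2 at chr1:186622792-186705989 (-) and Tgfb3 at chr12:86056745-86079041 (-). Tgfbr1 lies at chr4:47353222-47414931 (+), Tgfbr2 at chr9:116084293-116175360 (-) and Tgfbr3 at chr5:107106570-107289629 (-). Ltbp1 lies at chr17:75005568-75392512 (+), Ltbp2 at chr12:84783212-84876532 (-), Ltbp3 at chr19:5740904-5758532 (+) and Ltbp4 at chr7:27305136-27337692 (-). Other gene models on the same strand overlapped Tgfbr3 (3 models) and Ltbp1 (1 model), whose UMI counts this could affect. The other 8 had no such overlap.

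RefSeq's promoter table (GRCm38.p6, 250 bases before to 50 after a start site) held 12 windows for 8 of the 10 genes. Tgfb3 and Tgfbr3 were not among them. Shown are the windows of 4 genes whose calls the results below turn on: Tgfb1 (called in EC-like and OB-like cells), Tgfb2 (chondrocyte-like and metaphyseal endothelial cells), Ltbp2 (dpMSC-like cells) and Ltbp4 (endothelium, with 1 of its 3 windows). Capitals mark matches on either strand to any of 4 motifs: the Sp1 box, spelled GGGCGG, the Smad box, spelled CAGAC, the TATA box, spelled TATAAA, and the AP-1 site, spelled TGANTCA.
Tgfb1, chr7:25686752-25687051 (+): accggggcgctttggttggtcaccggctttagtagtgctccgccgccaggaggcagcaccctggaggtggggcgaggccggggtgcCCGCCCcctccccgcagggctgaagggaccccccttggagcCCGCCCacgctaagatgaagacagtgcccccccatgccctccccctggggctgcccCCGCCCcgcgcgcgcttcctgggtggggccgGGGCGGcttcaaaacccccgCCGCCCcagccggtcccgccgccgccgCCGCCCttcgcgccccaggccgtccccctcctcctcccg
Tgfb2, chr1:186705940-186706239 (-): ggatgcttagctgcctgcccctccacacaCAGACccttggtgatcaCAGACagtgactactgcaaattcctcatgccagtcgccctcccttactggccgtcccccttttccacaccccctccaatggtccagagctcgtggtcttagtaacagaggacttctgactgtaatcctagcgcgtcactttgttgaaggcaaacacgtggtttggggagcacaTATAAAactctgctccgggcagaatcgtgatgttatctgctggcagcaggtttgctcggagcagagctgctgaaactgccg
Ltbp2, chr12:84876442-84876741 (-): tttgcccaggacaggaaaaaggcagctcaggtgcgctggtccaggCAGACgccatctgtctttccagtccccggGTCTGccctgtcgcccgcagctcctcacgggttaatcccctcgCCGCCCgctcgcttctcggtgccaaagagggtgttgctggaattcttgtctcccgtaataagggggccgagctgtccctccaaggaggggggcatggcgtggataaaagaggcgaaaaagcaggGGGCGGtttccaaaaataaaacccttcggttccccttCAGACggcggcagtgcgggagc
Ltbp4, chr7:27337563-27337862 (-): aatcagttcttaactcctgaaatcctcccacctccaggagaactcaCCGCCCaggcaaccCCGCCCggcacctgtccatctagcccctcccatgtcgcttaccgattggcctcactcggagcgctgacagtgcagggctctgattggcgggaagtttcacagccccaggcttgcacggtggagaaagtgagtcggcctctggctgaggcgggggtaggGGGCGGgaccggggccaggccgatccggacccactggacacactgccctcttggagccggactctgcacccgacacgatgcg
The Tgfb1 window held 6 Sp1 boxes and none of the other motifs, and 77.00% of its bases were G or C, against a median of 52.7% over all windows. The Tgfb2 window held 1 TATA box and 2 Smad boxes, the Ltbp2 window 2 Sp1 boxes and 3 Smad boxes, and the Ltbp4 window 3 Sp1 boxes. Of all 32851 windows 35.7% held an Sp1 box, 49.6% a Smad box, 13.6% a TATA box and 7.81% an AP-1 site. Letters in a window do not show that a factor binds there, and UMIs counted per gene do not tell the several starts of Ltbp4 apart.

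The libraries held 25243314 (metaphyseal replicate 1), 22082735 (metaphyseal replicate 2) and 91747759 UMIs (Pdgfra-GFP replicate 1). The study's limits on genes and on mitochondrial and ribosomal UMIs left 15628 cells, of which 14842 took a population and 407 lay near the limit of the gate. Scrublet marked 25, 17 and 149 cells as doublets, which were kept. Barcodes with fewer than 100 UMIs, taken as free RNA, carried 7.24% to 9.91% of a library's UMIs. Matched by position in each library's barcode list, the Pdgfra-GFP library shared 9 and 10 cell barcodes with metaphyseal replicates 1 and 2, which shared 0 with each other. Whether the libraries used the same list was not checked. Cells of the Pdgfra-GFP library stood apart in their median mitochondrial share, at 0.903% against 3.71% and 3.80%, and the part of that share in the results was not tested.

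Populations carry the suffix "-like" because they rest on marker genes alone, and cell numbers are given in the order Pdgfra-GFP 1, metaphyseal 1, metaphyseal 2, as are all values below. Septoclast-like cells (SC-like, after the cells that resorb growth plate cartilage) numbered 175, 11 and 8, and the sum of 8 cells was too small to enter the tests. Metaphyseal stromal cells (mpMSC-like) numbered 1669, 97 and 86, diaphyseal stromal cells (dpMSC-like) 4167, 718 and 664, osteoblast-like cells (OB-like) 1801, 211 and 183 and chondrocyte-like cells 1792, 40 and 36. Endothelial cells (EC-like) numbered 314, 1121 and 890, and their sum in the library sorted for Pdgfra did not enter the levels or tests. The macrophage-like, osteoclast-like, neutrophil-like, B cell-like and erythroid-like sums of that library came from the same sort. They were kept in the levels and in the fit of all populations. Fibroblast-like cells (224) came from the Pdgfra-GFP library alone, and with a median of 3 fibroblast and 3 chondrocyte markers seen per cell their name is weak.

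Levels are UMIs of a gene per 1000000 UMIs of a population's sum in a library (CPM), and only sums of at least 10 cells were used. Among the sums used, Tgfb1, the most studied ligand in bone, had its highest mean in EC-like cells, at 321 and 327 CPM in the metaphyseal libraries. Macrophage-like cells followed at 314 and 291 CPM (Pdgfra-GFP 1 and metaphyseal 1) and B cell-like cells at 406, 255 and 217. These EC-like values lay above the macrophage-like ones, while the B cell-like range spanned the values of both. The unused EC-like sum of the Pdgfra-GFP library held 288 CPM, below the macrophage-like and B cell-like values of that library.

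Among stromal populations Tgfb1 stood at 153, 234 and 209.6 CPM in OB-like cells and at 238 and 119.6 in SC-like cells, with overlapping ranges. It was 86.5, 92.9 and 94.00 CPM in mpMSC-like cells and 50.1, 58.7 and 55.7 in dpMSC-like cells, the lowest mean of the 13 populations. Every dpMSC-like value lay below and every OB-like value above the mpMSC-like ones.

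Tgfb2 had another distribution, with the highest mean in mural-like cells (smooth muscle and pericyte markers), at 124, 114 and 204 CPM. Chondrocyte-like cells held 54.2, 132 and 159 CPM, with both metaphyseal values far above that of the Pdgfra-GFP library, and the mural-like and chondrocyte-like ranges overlapped. SC-like cells held 37.7 and 36.8 CPM. The ranges of dpMSC-like (21.7, 34.9 and 32.7), mpMSC-like (29.9, 22.97 and 13.3) and EC-like cells (18.5 and 18.1) overlapped from each to the next, and OB-like cells stood below them at 5.28, 9.38 and 10.5 CPM. No UMI of Tgfb2 was counted in macrophage-like, osteoclast-like or B cell-like sums, where exact Poisson limits reached up to 22.8 CPM.

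Tgfb3 was the ligand that had its highest population mean in SC-like cells, at 113 and 119.6 CPM. mpMSC-like cells held 82.1, 60.9 and 85.6 CPM and mural-like cells 75.3, 73.1 and 73.02, overlapping each other but not the SC-like range. The sum of 8 SC-like cells of metaphyseal replicate 2, which was not used, held 6 UMIs or 82.5 CPM, within the mpMSC-like range. dpMSC-like cells held 34.7, 39.9 and 40.00 CPM, OB-like cells 12.2, 15.2 and 13.1 and EC-like cells, the lowest, 0.860 and 1.58.

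**Figure D1:**
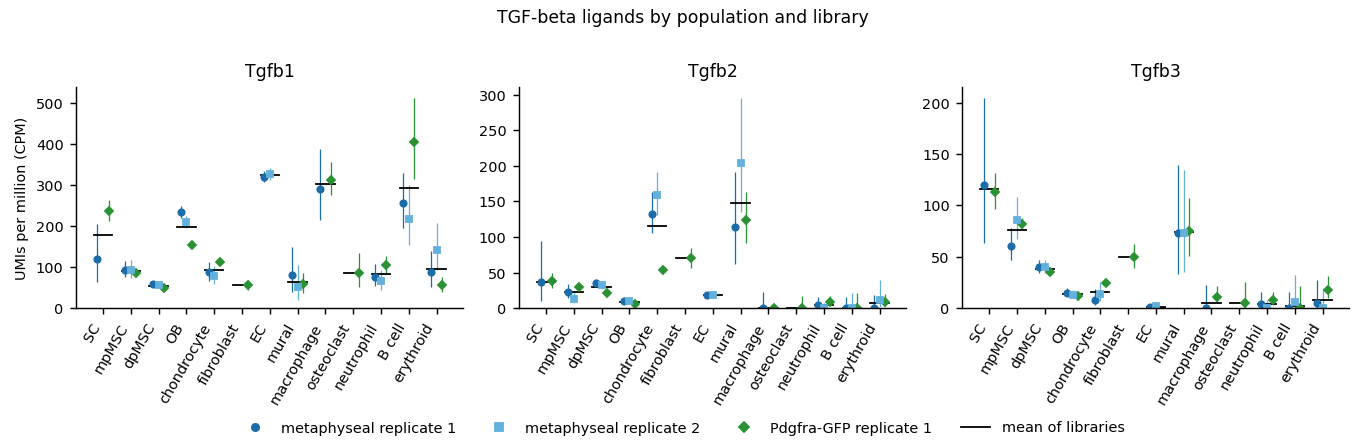
CPM of Tgfb1, Tgfb2 and Tgfb3 in 13 gated populations. Points are libraries with at least 10 cells, vertical lines exact Poisson 95% intervals (counting error only) and black bars means over libraries. The highest means are 324 CPM of Tgfb1 in EC-like, 147 of Tgfb2 in mural-like and 116 of Tgfb3 in SC-like cells.

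Of the receptors, Tgfbr1, the type I kinase, ranged from a mean of 13.7 CPM in neutrophil-like to 55.2 in macrophage-like cells over all populations but one. It was 28.1, 26.96 and 33.7 CPM in mpMSC-like and 23.01, 23.99 and 29.4 in dpMSC-like cells, with overlapping ranges. The osteoclast-like sum stood apart with 92 UMIs in 17 cells of the Pdgfra-GFP library, or 414 CPM (exact Poisson 95% interval 333 to 507, counting error only). That value has no replicate and no test. The same sum held 6601 CPM of the 7 SC markers, 3048 of the 5 fibroblast markers and 2365 of the 6 macrophage markers. Of these, 3, 4 and 2 markers stood at 0, and their part in the Tgfbr1 value was not tested. The study reports that CD68+ osteoclasts of Pdgfra-GFP mice lacked GFP signal. Between the gated populations compared below Tgfbr1 was called in none of 6 comparisons, with log2 fold changes from -0.60 (SC-like against mpMSC-like) to 0.44 (OB-like against mpMSC-like).

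Tgfbr2 was highest in EC-like cells, at 182 and 200.1 CPM, above every value of the other populations. Chondrocyte-like cells held 91.5, 65.98 and 71.9 CPM and dpMSC-like cells 44.8, 63.2 and 67.6, and these ranges overlapped. mpMSC-like cells held 36.1, 34.95 and 32.5 CPM, with the 3 libraries close together. OB-like cells, at 17.5, 15.2 and 15.5 CPM, lay below all of these.

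Tgfbr3, the co-receptor, was highest in dpMSC-like cells, at 208, 371 and 370.4 CPM. EC-like cells (73.2 and 79.4) and mpMSC-like cells (45.4, 78.9 and 94.00) followed and overlapped, and OB-like cells held 5.23, 4.02 and 5.77. In both stromal populations the Pdgfra-GFP library was the lowest. For thinned shares each cell was thinned to 2000 UMIs. Cells with fewer UMIs were left out of these and kept in the unthinned shares. After thinning, 34.5%, 51.8% and 51.4% of dpMSC-like cells had a Tgfbr3 UMI (52.3%, 84.8% and 84.3% unthinned, at medians of 3600, 5651.5 and 5703 UMIs). For comparison, the thinned shares in erythroid-like cells were 1.45%, 0% and 0%. There 0 of 14 and 0 of 11 cells allow up to 23.2% and 28.5% by exact binomial limits. Unthinned, the erythroid-like shares were 12.7%, 7.14% and 0%, at medians of 8128, 12938 and 11602 UMIs.

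**Figure D2:**
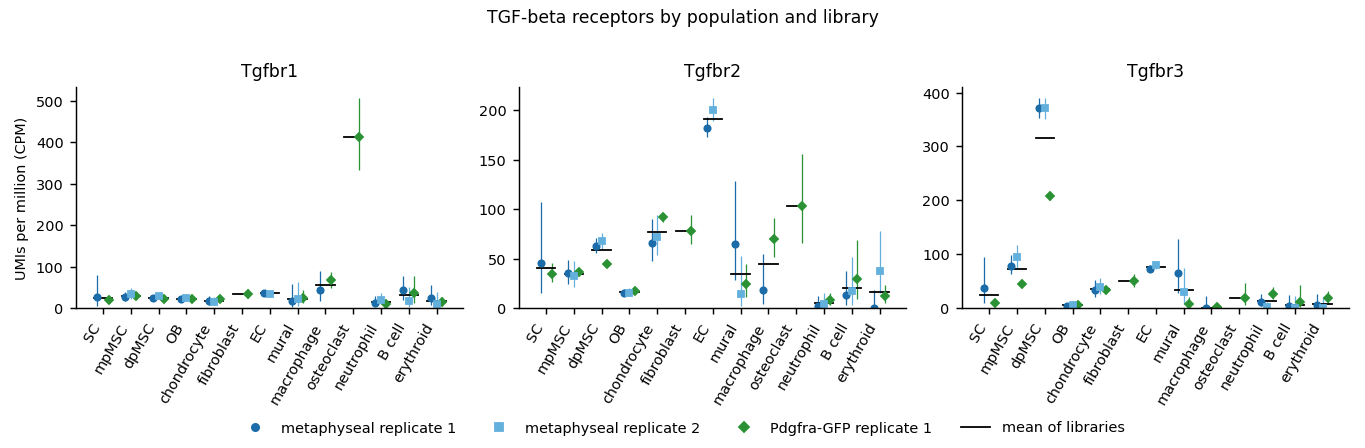
CPM of Tgfbr1, Tgfbr2 and Tgfbr3 in 13 gated populations, with points, intervals and bars as in the plot of the ligands. Tgfbr1 reaches 414 CPM in the single osteoclast-like sum, Tgfbr2 a mean of 191 in EC-like and Tgfbr3 a mean of 316 in dpMSC-like cells.

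Of the latent binders, Ltbp1 was highest in dpMSC-like cells, at 121, 183 and 197 CPM, followed by mpMSC-like cells at 78.6, 105 and 94.00. SC-like cells held 9.59 and 18.4 CPM, from 14 and 2 UMIs, and the unused sum of 8 cells held 0. The dpMSC-like, mpMSC-like and SC-like ranges did not overlap. EC-like cells held 2.01 and 2.10 CPM.

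Ltbp2 was concentrated in dpMSC-like cells, at 122, 248 and 275 CPM. In mpMSC-like cells it was 6.65, 6.99 and 36.2 CPM, so metaphyseal replicate 2 stood apart from the other libraries. The 6 dpMSC markers summed to 4176, 2529 and 4296 CPM in those mpMSC-like sums, with none of the 6 at 0, and their part in the Ltbp2 values was not tested. After thinning, 20.3%, 31.9% and 36.6% of dpMSC-like cells had an Ltbp2 UMI (30.7%, 60.6% and 63.6% unthinned), against 0%, 7.14% and 0% of erythroid-like cells (4.23%, 7.14% and 0% unthinned; 0 of 69 and 0 of 11 cells allow up to 5.21% and 28.5%), at the median depths given for Tgfbr3.

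Ltbp3 was found at overlapping levels in most stromal populations. dpMSC-like (58.3, 89.5 and 90.1 CPM), mpMSC-like (56.4, 82.9 and 96.4), SC-like (63.7 and 82.8) and chondrocyte-like cells (51.99, 70.8 and 55.3) overlapped from each to the next. EC-like cells held 44.4 and 50.8 CPM and OB-like cells 28.4, 43.1 and 39.1. The highest mean, 87.95 CPM in the single fibroblast-like sum, lay within the dpMSC-like range.

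Among the sums used, Ltbp4 was highest in the single fibroblast-like sum, at 258 CPM (exact Poisson 95% interval 233 to 286). In that sum the 10 chondrocyte markers came to 4440 CPM with 1 of them at 0. The unused EC-like sum of the same Pdgfra-GFP library held 301 CPM (275 to 328), above the fibroblast-like value. EC-like cells of the metaphyseal libraries held 179 and 196 CPM and mural-like cells 89.9, 89.4 and 51.1. mpMSC-like cells held 8.13, 13.98 and 2.41 CPM, dpMSC-like cells 4.07, 3.56 and 6.33 and OB-like cells 2.30, 1.56 and 2.89. The erythroid-like sum of 11 cells in metaphyseal replicate 2 held 59.6 CPM together with 472 CPM of the 7 EC markers (10.6 and 14.6 in the other libraries), and their part in that value was not tested.

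Free RNA held each member too, and its levels stood above the mpMSC-like value of the same library for 5 of them. These were Tgfb1 (122, 169 and 169.6 CPM), Tgfbr2 (43.96, 106 and 108), Tgfbr3 (52.2, 103 and 109), Ltbp2 (24.1, 53.5 and 60.8) and Ltbp4 (14.9, 67.5 and 72.7). For Tgfb2 (21.4, 27.5 and 19.2) this held in both metaphyseal libraries only. Free RNA stood below the mpMSC-like value in 3 of 3 libraries for Tgfb3 (20.1 to 30.6), Tgfbr1 (17.9 to 24.7), Ltbp1 (37.6 to 52.6) and Ltbp3 (42.9 to 78.6). Erythroid-like cells held 55.8, 87.4 and 141 CPM of Tgfb1, and the part of free RNA in the levels of the members was not tested.

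**Figure D3:**
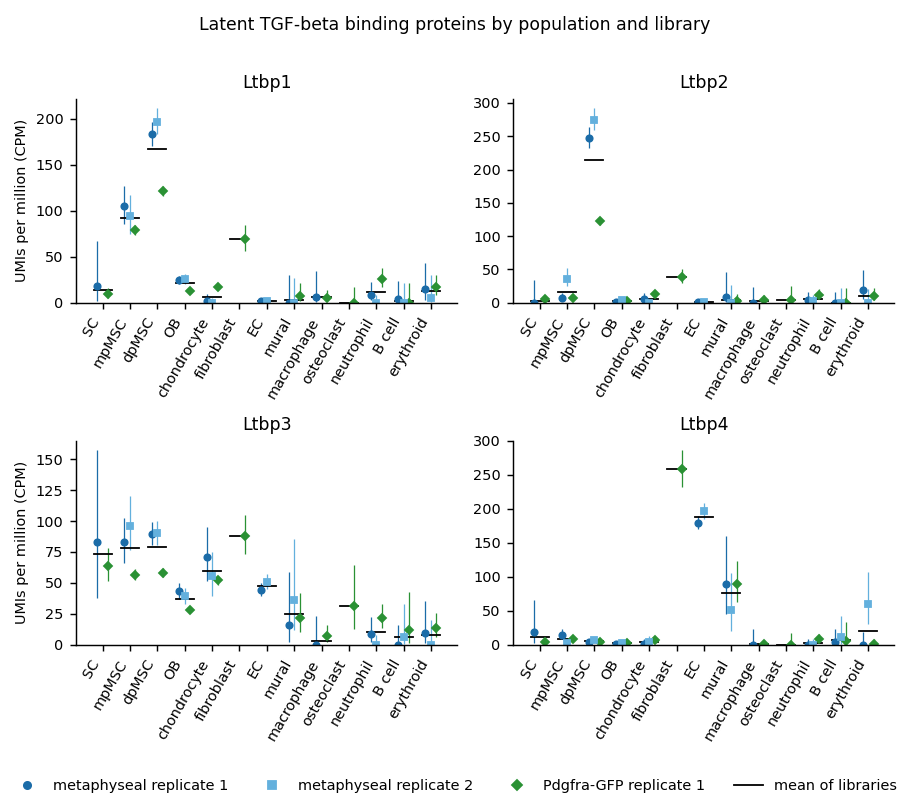
CPM of Ltbp1, Ltbp2, Ltbp3 and Ltbp4 in 13 gated populations, with points, intervals and bars as in the plot of the ligands. Ltbp1 and Ltbp2 have their highest means in dpMSC-like cells (167 and 215 CPM). Ltbp4 stands at 258 in the fibroblast-like sum and at a mean of 188 in EC-like cells of the metaphyseal libraries.

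Populations were compared by the quasi-likelihood test of edgeR on sums per library, with the library as a block, p-values adjusted by Benjamini-Hochberg over all genes tested, and a call below 0.05. Differences are log2 fold changes of TMM-scaled sums. Counts of libraries in which a member was higher or lower were taken on the CPM scale, without TMM. The SE given with them is the absolute log2 fold change divided by the square root of the test's F statistic. The 5 comparisons with mpMSC-like cells share the mpMSC-like sums and are not independent of each other. Scaled by total UMIs without TMM, the median log2 fold change of all genes was -0.79 in OB-like and -0.40 in chondrocyte-like cells, and the share of calls that were higher went from 48.9% to 9.11% and from 51.4% to 25.98% (in SC-like cells from 52.4% to 62.9%), so changes in these populations are relative to the scaling.

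SC-like against mpMSC-like cells addressed how septoclasts differ from the stroma around them. Ltbp1 and Tgfbr3 were lower in SC-like cells, and no member was called higher. Ltbp1 fell by 3.12 (SE 0.65, edgeR adjusted p = 0.00396) and Tgfbr3 fell by 2.30 (SE 0.57, edgeR adjusted p = 0.0174), each lower in 2 of 2 libraries. Thus 0 of the 10 genes were called higher (as were 2.03% of 12985 genes) and 2 lower (1.84% of all genes), with a median of -0.36 against -0.10 over all genes. An unadjusted p was under 0.05 for 3 of the 10, and with DESeq2 Tgfb1 was called higher. Tgfb1, above the mpMSC-like range in 2 of 2 libraries, had a log2 fold change of 0.98 (SE 0.30, edgeR adjusted p = 0.0665), and that of Tgfb3 was 0.42 (SE 0.31, edgeR adjusted p = 0.651).

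The SC-like result rests on few cells, and both calls were lost with DESeq2 (DESeq2 adjusted p = 0.0535 for Ltbp1 and 0.261 for Tgfbr3). The Tgfbr3 values rested on 15 and 4 UMIs in the SC-like sums (10.3 and 36.8 CPM). The Ltbp1 call was lost under 3 of 18 other settings. The Tgfbr3 call was lost under 7 of 18, among them gate leads of 0.25 (the lead first written) and 0.5. The former was lost without metaphyseal replicate 1 (edgeR adjusted p = 0.148) or the Pdgfra-GFP library (0.267), and the latter without metaphyseal replicate 1 (0.160), metaphyseal replicate 2 (0.0775) or the Pdgfra-GFP library (-1.54, edgeR adjusted p = 0.540). Tgfb1 was called under 8 of 18 other settings, among them DESeq2 (1.08, DESeq2 adjusted p = 0.0103). In 4 of those 8, however, the SC-like cells came from the Pdgfra-GFP library alone. When it was left out, Tgfb1 stood at -0.02 (log2), with 1 SC-like sum of 11 cells and 13 UMIs of Tgfb1 (119.6 CPM). The unused sum of 8 SC-like cells held 15 UMIs of Tgfb1 or 206 CPM, above every mpMSC-like value. The 6 mpMSC markers summed to 11972 and 8970 CPM in the SC-like sums, with none at 0, and their part in these values was not tested.

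dpMSC-like against mpMSC-like cells compared stromal cells gated on dpMSC markers with those gated on mpMSC markers. Both populations of a library came from the same dissected tissue, so their names do not give the position of the cells. Ltbp2 and the receptors Tgfbr2 and Tgfbr3 were higher in dpMSC-like cells, and the ligands Tgfb1 and Tgfb3 were lower. Of the 10 genes 3 were called higher (12.8% of all genes) and 2 lower (10.7%). Ltbp2 was 4.10 higher (SE 0.47, edgeR adjusted p = 3.45e-07), Tgfbr3 2.14 higher (SE 0.29, edgeR adjusted p = 3.01e-06) and Tgfbr2 0.72 higher (SE 0.27, edgeR adjusted p = 0.0493), each in 3 of 3 libraries. Tgfb3 fell by 1.03 (SE 0.23, edgeR adjusted p = 0.00142) and Tgfb1 fell by 0.77 (SE 0.25, edgeR adjusted p = 0.0246), each lower in 3 of 3 libraries. The third ligand, Tgfb2, had a log2 fold change of 0.04 (SE 0.29, edgeR adjusted p = 0.952). Ltbp1 lay above the mpMSC-like range in 3 of 3 libraries, at 0.81 (SE 0.31, edgeR adjusted p = 0.0612).

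The median of the 10 genes was 0.02 against 0.08 over all genes in that comparison. The calls of Tgfb1 and Tgfbr2 were lost without metaphyseal replicate 1 (edgeR adjusted p = 0.173 and 0.232) or 2 (0.130 and 0.381). Over all other settings the call of Tgfb1 was lost under 4 of 19, that of Tgfbr2 under 10 of 19 and that of Tgfb3 under 1 of 19. Ltbp1 was called under 6 of 19, among them the fit without the Pdgfra-GFP library (0.85, edgeR adjusted p = 2.81e-05). Ltbp4, at -0.92 (SE 0.46, edgeR adjusted p = 0.165), was called under 6 of 19 as well. The difference in Ltbp2 was 4.75 without metaphyseal replicate 2.

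OB-like against mpMSC-like cells compared bone-forming cells with the metaphyseal stroma. Tgfb1 was 1.86 higher (SE 0.25, edgeR adjusted p = 1.68e-06) in 3 of 3 libraries, the 1 member called higher (16.9% of all genes), and it stayed called without TMM at 1.13. The other ligands, the co-receptor and a pair of binders were lower, 5 of the 10 (17.6% of all genes), each in 3 of 3 libraries. By CPM, Tgfbr1, Tgfbr2 and Ltbp3, which were not called, were lower in 3 of 3 libraries as well. Tgfbr3 fell by 2.89 (SE 0.34, edgeR adjusted p = 2.27e-07), Tgfb3 fell by 1.75 (SE 0.25, edgeR adjusted p = 2.95e-06) and Tgfb2 fell by 1.05 (SE 0.32, edgeR adjusted p = 0.0115). Ltbp2 fell by 1.61 (SE 0.60, edgeR adjusted p = 0.0405) and Ltbp1 fell by 1.46 (SE 0.34, edgeR adjusted p = 0.00119). The median of the 10 was -1.05 against -0.03 over all genes.

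The scaling decided several OB-like values. Without TMM, Tgfbr2 (-1.10), Ltbp3 (-1.06) and Ltbp4 (-1.87) were called lower as well, and Tgfbr1 went from 0.44 to -0.34, called in neither. Leaving out metaphyseal replicate 1 ended the calls of Tgfb2, Ltbp1 and Ltbp2 (edgeR adjusted p = 0.0979, 0.0833 and 0.171), leaving out metaphyseal replicate 2 that of Ltbp2 (0.133), and leaving out the Pdgfra-GFP library that of Tgfb2 (-0.30, edgeR adjusted p = 0.600). Without that library Tgfbr3 stood at -3.53 and Ltbp2 at -2.75, both still called. Over all other settings the call of Ltbp2 was lost under 10 of 19, that of Tgfb2 under 4 of 19 and that of Ltbp1 under 2 of 19.

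In chondrocyte-like against mpMSC-like cells, Tgfb2 and the type II receptor Tgfbr2 were higher, and Tgfb3 and Ltbp1 lower. Tgfb2 was 2.24 higher (SE 0.30, edgeR adjusted p = 1.59e-06) and Tgfbr2 1.57 higher (SE 0.28, edgeR adjusted p = 4.89e-05), each in 3 of 3 libraries, so 2 of the 10 genes were called higher (17.2% of all genes). Tgfb3 fell by 1.57 (SE 0.27, edgeR adjusted p = 3.96e-05) and Ltbp1 fell by 2.38 (SE 0.39, edgeR adjusted p = 2.18e-05), lower in 3 of 3 libraries, which makes 2 called lower (16.2% of all genes). By CPM, Tgfbr1, Tgfbr3 and Ltbp3, which were not called, were lower in 3 of 3 libraries as well. Ltbp1 rested on 251, 1 and 0 UMIs in the chondrocyte-like sums. The medians of the 10 and of all genes were both within 0.01 of 0 (log2). Tgfbr3 was called lower without the Pdgfra-GFP library (-0.99, edgeR adjusted p = 0.00616), against -0.49 (SE 0.33, edgeR adjusted p = 0.271) with all libraries, and then Tgfb2 stood at 3.22, Tgfb3 at -2.45 and Ltbp1 at -6.71. Without TMM Tgfbr1 was called lower as well (-0.54).

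The differences of dpMSC-like, OB-like and chondrocyte-like cells from mpMSC-like cells were also compared between the Pdgfra-GFP and the metaphyseal libraries, by an interaction test of edgeR. The single Pdgfra-GFP library was fitted exactly there, so the spread in that test came from the metaphyseal libraries alone. In chondrocyte-like cells 3 of the 10 genes passed (Tgfb2, Ltbp1 and Ltbp2; 4.45% of all genes), in OB-like cells 1 (Tgfbr3; 0.632%) and in dpMSC-like cells 0 (0.678%), where 2 of the 10 had an unadjusted p under 0.05.

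EC-like against mpMSC-like cells gave changes of the widest range, with Tgfb1, Tgfbr2 and Ltbp4 higher and the other binders and Tgfb3 lower. Ltbp4 was 4.57 higher (SE 0.43, edgeR adjusted p = 1.17e-09), Tgfbr2 2.56 higher (SE 0.29, edgeR adjusted p = 2.91e-08) and Tgfb1 1.90 higher (SE 0.27, edgeR adjusted p = 2.09e-06), each in 2 of 2 libraries, so 3 of the 10 genes were called higher (20.6% of all genes) and 4 lower (17.1%). Tgfb3 fell by 5.82 (SE 0.41, edgeR adjusted p = 8.29e-12), resting on 6 and 9 UMIs in the EC-like sums. Ltbp1 fell by 5.46 (SE 0.53, edgeR adjusted p = 2.26e-09), Ltbp2 fell by 3.80 (SE 0.86, edgeR adjusted p = 0.000810) and Ltbp3 fell by 0.73 (SE 0.28, edgeR adjusted p = 0.0407), each lower in 2 of 2 libraries. The median of the 10 was -0.31 against 0.09 over all genes. The Ltbp3 call was lost without metaphyseal replicate 1 (edgeR adjusted p = 0.449) or 2 (0.215) and under 6 of 19 other settings in all, DESeq2 and the fit without the library block among them, and Ltbp2 stood at -4.52 without the Pdgfra-GFP library.

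**Figure D4:**
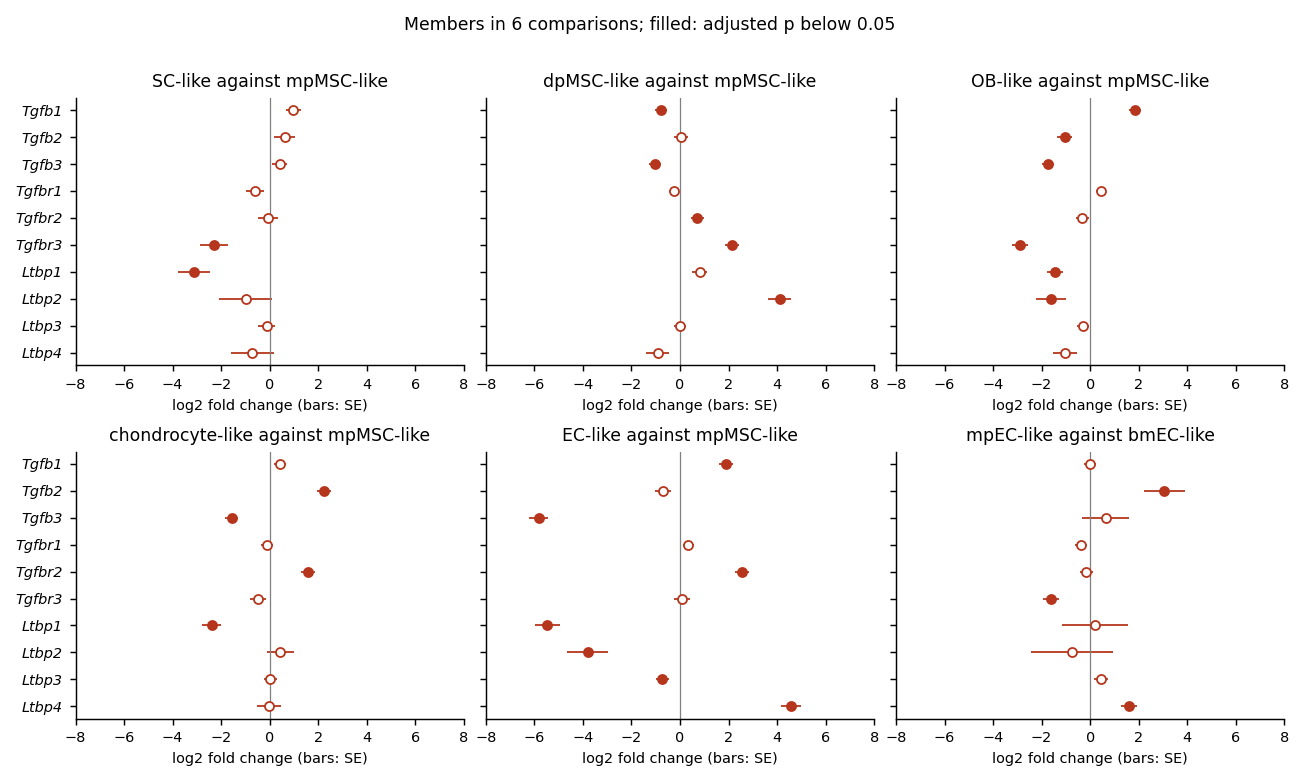
Log2 fold changes of the 10 genes in 6 comparisons of gated populations, with SE worked out from the test's F statistic. Filled points have an edgeR adjusted p below 0.05. Tgfb1 is lower in dpMSC-like (-0.77) and higher in OB-like (1.86) and EC-like (1.90) than in mpMSC-like cells, on TMM-scaled sums.

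Within the endothelium of the metaphyseal libraries, metaphyseal (mpEC-like, 456 and 334 cells) and bone marrow (bmEC-like, 484 and 399 cells) cells differed in 3 members. Ltbp4 stood at 160.4 and 199 CPM in mpEC-like and 57.2 and 59.2 in bmEC-like cells and was 1.60 higher (SE 0.34, edgeR adjusted p = 0.00221). Tgfb2 stood at 6.64 and 7.06 against 0 and 1.61 CPM, from 20 and 16 against 0 and 4 UMIs. It was 3.06 higher (SE 0.86, edgeR adjusted p = 0.0240). Free RNA of these libraries held 27.5 and 19.2 CPM of Tgfb2, above both subsets, and its part in this difference was not tested. Tgfbr3 stood at 38.9 and 45.02 against 123 and 126 CPM and fell by 1.60 (SE 0.33, edgeR adjusted p = 0.00139). Each held in 2 of 2 libraries, and 2 of the 10 were called higher (3.11% of 13099 genes) and 1 lower (4.75%), with a median of 0.09 against 0.00 over all genes.

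Tgfb1 was not called between the endothelial subsets (334 and 359.7 against 353 and 333 CPM, log2 fold change -0.01, SE 0.26), nor was Tgfbr2 (145 and 171 against 162 and 185 CPM), each with overlapping ranges. Leaving out either library left 1 sum on each side, assumed to vary like the other sums, and then no member was called: the edgeR adjusted p without metaphyseal replicate 1 was 0.524 for Ltbp4, 0.853 for Tgfb2 and 0.613 for Tgfbr3, and without replicate 2 it was 0.2003, 0.0700 and 0.227. The difference in Tgfb2, with a bmEC-like sum at 0 UMIs, went to 2.06 and 7.08. Over all other settings the calls of Ltbp4, Tgfb2 and Tgfbr3 were lost under 4 of 19, 5 of 19 and 4 of 19.

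Arterial cells (aEC-like, 81 and 60 cells) were described without a test. They had the highest levels of 3 members among the endothelial subsets, at 733 and 946 CPM of Ltbp4, 466 and 442 of Tgfbr2 and 135 and 152 of Tgfb2, above both other subsets in either library. Tgfb1 was 168 and 187 CPM there, below both. Tgfbr3 was 4.95 and 2.34 CPM, from 3 and 1 UMIs.

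**Figure D5:**
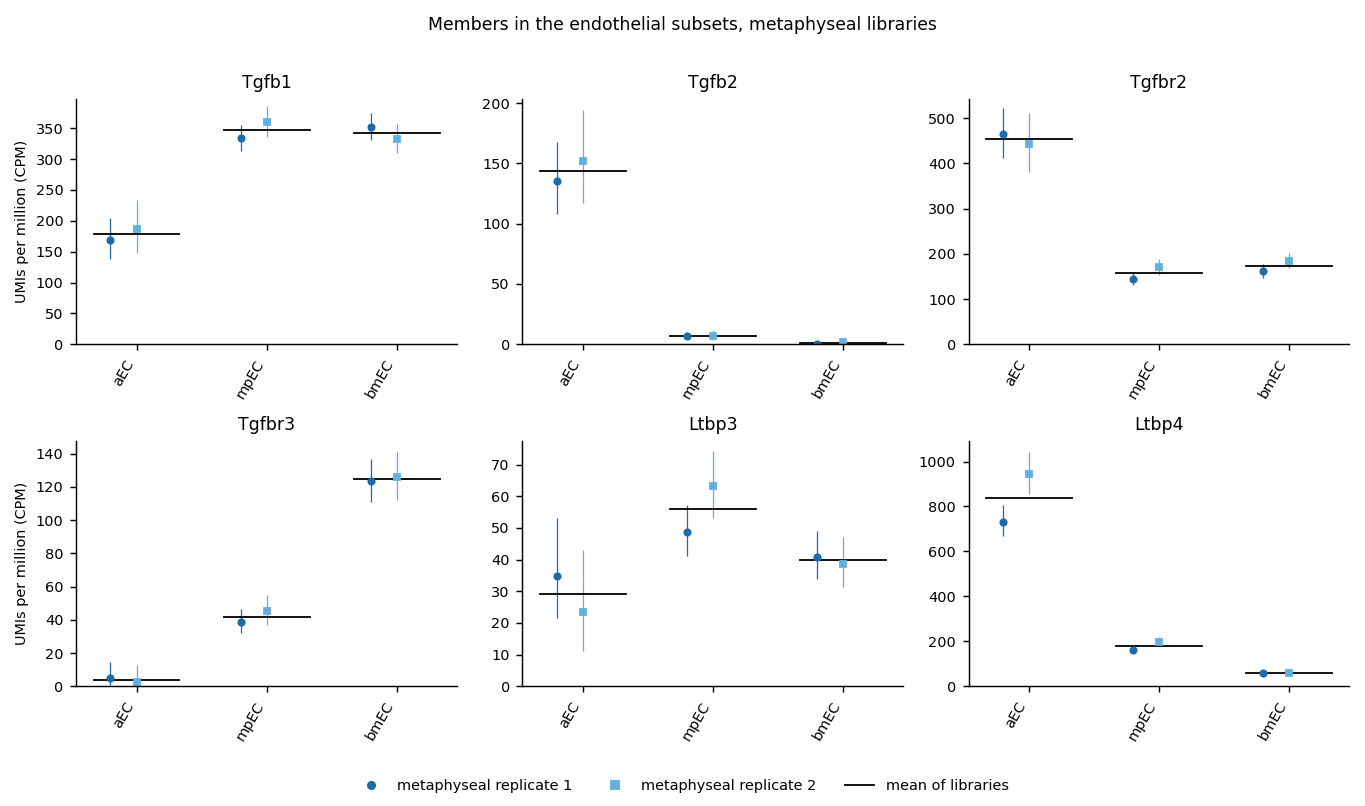
CPM of 6 genes in aEC-like, mpEC-like and bmEC-like cells of metaphyseal replicates 1 and 2, with exact Poisson 95% intervals (counting error only) and means as black bars. The means of Ltbp4 are 839, 179.7 and 58.2 CPM in that order, and those of Tgfbr3 3.65, 41.9 and 125.

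Other genes of the pathway came from a list of 33, of which 31 passed the filter. Their calls are those of the main setting, and whether they hold under the alternatives was not examined. In SC-like against mpMSC-like cells 0 were called higher (2.03% of all genes) and 2 lower (1.84%): Tgfbi, a matrix protein that TGF-beta induces (-2.61, edgeR adjusted p = 0.00721), and Bambi, a decoy receptor (-1.77, edgeR adjusted p = 0.0194). In dpMSC-like cells 6 were called higher (12.8% of all genes) and 7 lower (10.7%), with the integrin subunits Itgb3 (-1.86) and Itgb5 (-2.16), Bambi (-1.95) and the co-receptor Cd109 (-2.18) having the lowest adjusted p. In OB-like cells 6 were higher (16.9% of all genes) and 11 lower (17.6%), those of lowest adjusted p being Tagln (-4.87), a target gene, Itgb3 (-2.28), Tgfbi (-3.75) and Fbn1 (-3.88), a fibrillin to which latent binders attach.

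Chondrocyte-like cells had 8 genes of that list higher (17.2% of all genes) and 8 lower (16.2%), among them Cd109 (3.91), higher, and Itgb3 (-2.97) and Tagln (-3.02), lower. EC-like cells had 10 higher (20.6% of all genes) and 10 lower (17.1%), led by the endothelial co-receptor Eng (4.999) and Nrros (5.56), which anchors latent ligand on cells, higher, and Itgb3 (-4.17) and Itgb5 (-5.996), lower. In mpEC-like against bmEC-like cells 2 were higher (3.11% of all genes) and 3 lower (4.75%), led by Lrrc32 (-1.73), another anchor, Cd109 (2.33), Pmepa1 (2.03) and Nrros (-1.08). The median of the list lay between -0.30 and 0.07 in the 6 comparisons.

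The gene most like a member over 32 sums of 13 populations was found by Pearson's r of log2 CPM among 10476 genes. For the ligands these were Prex1 for Tgfb1 (r = 0.776), Farp1 for Tgfb2 (r = 0.898) and Tpm2 for Tgfb3 (r = 0.949). For the receptors they were Slc37a2 for Tgfbr1 (r = 0.905) and Il1r1 for Tgfbr3 (r = 0.914). For the latent binders they were Sfrp1 for Ltbp1 (r = 0.921), Gm16685 for Ltbp2 (r = 0.935), Calu for Ltbp3 (r = 0.928) and Fam124a for Ltbp4 (r = 0.903). Slc37a2 and Tgfbr1 both had their highest level in the single osteoclast-like sum (531 and 414 CPM), whose part in their r was not tested. Sums of 1 library share its depth and preparation, so these values of r are a description only.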

How the data were processed

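Per the labels and the study's methods, the 3 libraries were made with 10x Chromium reagents. The authors used bcl2fastq, fastp 0.20 and STARsolo (STAR 2.7.3a) with mm10 and Gencode M23 plus an H2B-GFP sequence, and deposited unfiltered UMI counts by gene and barcode, not normalized. Of the study's filters, EmptyDrops was not rerun. Barcodes needed 1500 (metaphyseal) or 1000 (Pdgfra-GFP) genes, with mitochondrial UMIs up to 15% and ribosomal UMIs up to 30%.

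Each cell took the population with the highest mean marker score (log of UMIs per 10000, each marker divided by its 95th percentile and capped), if 3 of its markers were seen and the score led the next by at least 0.1 of itself. That lead was first written as 0.25 and was set to 0.1 after a trial at 4 leads (0, 0.1, 0.25 and 0.5) that showed cell numbers and the CPM of the 10 genes, so that SC-like cells reached 10 in metaphyseal replicate 1 (11 cells, 6 at 0.25). Every lead tried is among the alternatives. The scaling of the score was not varied. Members and gene lists were chosen with earlier results of these data known.

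Sums of at least 10 cells were tested with edgeR 4.0.16 (R 4.3.3; TMM, filterByExpr, glmQLFit, glmQLFTest), with Benjamini-Hochberg adjustment over all genes and a threshold of 0.05. All 10 members are named, with up to 4 called genes of the pathway list by lowest adjusted p and the most alike gene of each member, except for 1 gene of each kind that is not reported here. Alternatives included DESeq2 1.42.0, other gates, filters and scalings, Leiden clusters (scanpy 1.11.5) and leaving out each library. Sums of at least 5 cells, scaling without TMM and leads of 0.25 and 0.5 were added after the data were seen. The tests were tried on simulated data. Intervals are exact Poisson 95% limits for counting error only.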

Additional observations from a re-analysis of the deposited data

Results flagged for a closer look

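Differences from mpMSC-like cells, as log2 fold changes, were set side by side in the metaphyseal libraries and the Pdgfra-GFP library for 10 genes in 3 populations (dpMSC-like, OB-like and chondrocyte-like), and 4 of them passed an interaction test (edgeR quasi-likelihood, Benjamini-Hochberg over all genes), against 4.45% of all genes in chondrocyte-like, 0.632% in OB-like and 0.678% in dpMSC-like cells. With 1 library on the GFP-sorted side, the sort, the dissected region (the epiphysis was included there), the mouse line and the library cannot be told apart. That library was fitted exactly, so the p-values of this test hold the spread of the metaphyseal libraries only. They measure no spread among GFP-sorted libraries.

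For Tgfb2 in chondrocyte-like cells it was 3.26 in the metaphyseal libraries and 1.26 in the Pdgfra-GFP library, a difference of -2.001 (edgeR adjusted p = 0.000127). Growth plate-like cells alone held 41.9 CPM in the Pdgfra-GFP library (1225 cells) and 149 and 125 in metaphyseal replicates 1 and 2 (28 and 27 cells). Of 330 superficial-like cells 329 came from the Pdgfra-GFP library. These held 85.4 CPM of Tgfb2, above the 54.2 of all chondrocyte-like cells of that library, and their part in the difference was not tested.

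For Ltbp1 in chondrocyte-like cells it was -6.75 in the metaphyseal libraries and -1.85 in the Pdgfra-GFP library, a difference of 4.90 (edgeR adjusted p = 0.000108). For Ltbp2 it was -2.91 in the metaphyseal libraries and 1.32 in the Pdgfra-GFP library, a difference of 4.23 (edgeR adjusted p = 0.0104). The chondrocyte-like sums held 251, 1 and 0 UMIs of Ltbp1 and 192, 3 and 0 of Ltbp2 (Pdgfra-GFP 1, metaphyseal 1, metaphyseal 2), so the fitted sizes on the metaphyseal side depend on the prior count and are no bounds. The 6 dpMSC markers summed to 475, 64.4 and 65.00 CPM in these sums, with 1 of the 6 at 0 in metaphyseal replicate 1, and their part in the values was not tested.

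For Tgfbr3 in OB-like cells it was -3.56 in the metaphyseal libraries and -2.19 in the Pdgfra-GFP library, a difference of 1.37 (edgeR adjusted p = 0.0330), lower than in mpMSC-like cells on both sides.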

How the results depend on the processing

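Of 27 calls, 15 held under every alternative run and 12 were lost under at least 1 of up to 19, and none was called in the opposite direction. Of the 33 results not called, 12 were called under at least 1 alternative, and the sign differed from the reported one in 58 of 619 values. Members called went from 2 to 1 with DESeq2 and 1 without the library block in SC-like cells (0 to 1 leaving out a library), where the DESeq2 call was Tgfb1 and both reported calls were lost, and from 5 to 3 without TMM and 2 without the block in dpMSC-like cells (3 to 6). They went from 6 to 3 with DESeq2 in OB-like cells (3 to 6), and from 3 to 1 with DESeq2 and 1 without the block in mpEC-like against bmEC-like cells (0 to 3). Leaving out a library gave 4 to 5 in chondrocyte-like and 6 to 7 in EC-like cells. The highest population was the same for 6 of 10 genes with Leiden clusters, which gave 93.2% of gated cells the same name, and for 7 to 10 without a library. The cause of these changes was not tested. No Leiden cluster was named SC-like, so that comparison has no value there. At leads of 0.2, 0.25 and 0.5 and at 20 cells per sum, SC-like cells came from 1 library, assumed to vary like the other sums. The library itself is the block. Replicate numbers count libraries within a group and link none across the groups, which differ in mouse line and preparation. No paired analysis by replicate number was therefore possible. Depth limits SC-like, metaphyseal chondrocyte-like and bmEC-like values that rest on a few UMIs.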
